A study of Mus musculus with 6 samples.

Results

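The genes described here are 50 cell cycle and DNA replication genes, picked by name from the 38483 genes of a deposited transcript count table. They comprise 24 genes of the G1/S transition and DNA replication, 23 genes of G2 and mitosis (G2/M), and 3 genes for inhibitors of cyclin-dependent kinases (CDKs). All 50 were in the table under 1 gene ID each, and all 50 were among the 15121 genes that passed the low-count filter. RNA was measured in 6 libraries of mouse T cells on the B10.RIII background, 3 from Il17a knockout animals (KO, genotype IL-17A-/-) and 3 from wild-type animals (WT, genotype IL-17A+/+). In both groups, spleen cells were enriched for CD4+CD62L+ cells with an isolation kit and kept for 3 days in Th17-polarizing medium. It held 10 ng/ml of IL-6, the same dose of IL-23, and TGF-β at 1 ng/ml. Antibodies that block IFN-γ (10 µg/ml) and, at an equal dose, IL-4 were added. The labels give neither the age or sex of the animals nor how many gave the cells of a library.

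A resting T cell enters the cycle when D-type cyclins with CDK4 and CDK6, and then E-type cyclins with CDK2, release E2F transcription factors from the retinoblastoma protein. E2F factors drive the genes that load and fire replication origins and make deoxynucleotides, and later a second set of genes, run by the MuvB complex with MYBL2 and FOXM1, builds the mitotic machinery. Naive CD4 T cells do not divide, and activated ones pass through several divisions within days, so transcripts of both sets are abundant in cultures of this kind.

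Totals ran from 47573479 to 49743762 estimated counts in the KO libraries and from 47335736 to 48278239 in the WT libraries. Il17a, the deleted gene, was at 1.11, 0 and 0.0202 CPM (counts scaled to TMM-adjusted library size) in KO libraries 1, 2 and 3, against 161, 211 and 108 CPM in WT libraries 1, 2 and 3. T cell markers were present throughout, with Cd3e at 163 to 222 CPM in KO and 187 to 214 CPM in WT libraries, and Cd4 at 246 to 634 CPM in KO and 490 to 580 CPM in WT libraries. Some libraries stood apart. Cd8a, the CD8 coreceptor chain, was at 425 CPM in KO 1 and 257 CPM in WT 1 and at 33.7 to 66.1 CPM in the other 4. Ddx3y, a gene of the Y chromosome, had 44.5 CPM in KO 1, 38.0 CPM in KO 2 and 0 in KO 3, and at most 0.452 CPM in any WT library. Xist, expressed from the inactive X chromosome, was at 2.58, 0 and 627 CPM in KO libraries 1, 2 and 3, against 567 to 664 CPM in WT libraries. By these genes KO 1 and KO 2 came from male cells and KO 3 and the WT libraries from female cells, so KO 3 did not share an animal with KO 1 or KO 2. The labels do not say whether the other replicates came from separate animals or cultures, and p-values measure only the spread between these libraries. The part of sex in the cell cycle values was not tested. Libraries with the same replicate number deviated together from their group means, so KO 1 and WT 1 are called pair 1 here, and likewise for pairs 2 and 3.

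The promoters of the 2 gene sets differed in how often they held certain short motifs, though each motif occurred in both sets. RefSeq promoter windows (GRCm38.p6, 250 bases before to 50 after a start site) matched 41 of the 50 genes by symbol. The windows were searched on both strands for E2F sites (TTTCCCGC, TTTGGCGC, TTTCGCGC or TTTGCCGC), for the cell cycle genes homology region or CHR (TTTGAA or TTCGAA), and for the CCAAT box (CCAAT), which NF-Y binds. An E2F match was present for 7 of 20 matched G1/S genes (35%), 1 of 18 matched G2/M genes (5.56%) and 4.63% of the 9864 tested genes with a window. A CHR match was present for 15 of 18 G2/M genes (83.3%), 3 of 20 G1/S genes (15%) and 16.6% of tested genes with a window. CCAAT was found for 17 of 18 G2/M genes (94.4%), 12 of 20 G1/S genes (60%) and 43.2% of tested genes with a window. The 3 CDK inhibitor genes held neither an E2F nor a CHR match. These shares describe letters in a window and do not show that a factor was bound.

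The 250 bases before the start site are shown for 4 genes that the results below turn on, each on the minus strand of GRCm38.p6, written 5′ to 3′ along the gene with motif matches in capitals. Mcm6 (chr1:128359706-128359955) is the most abundant helicase subunit gene here, with 3 E2F and 2 CCAAT matches, of which a pair of E2F matches on opposite strands overlap. Slbp (chr5:33652575-33652824) is the gene whose KO and WT levels did not overlap, with 3 CCAAT matches. Cdk1 (chr10:69352913-69353162), the mitotic kinase gene, held 1 E2F, 2 CHR and 3 CCAAT matches. Top2a (chr11:99024190-99024439) held 4 CHR and 6 CCAAT matches.
Mcm6: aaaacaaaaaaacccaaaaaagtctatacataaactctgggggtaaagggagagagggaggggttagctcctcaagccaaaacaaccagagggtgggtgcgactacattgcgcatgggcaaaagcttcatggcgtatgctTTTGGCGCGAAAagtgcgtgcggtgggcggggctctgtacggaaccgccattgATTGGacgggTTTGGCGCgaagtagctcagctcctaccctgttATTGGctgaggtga
Slbp: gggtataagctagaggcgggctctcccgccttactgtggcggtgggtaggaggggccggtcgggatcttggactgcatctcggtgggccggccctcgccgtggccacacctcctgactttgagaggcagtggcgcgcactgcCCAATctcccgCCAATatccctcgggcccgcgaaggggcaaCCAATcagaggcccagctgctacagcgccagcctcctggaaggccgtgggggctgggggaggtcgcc
Cdk1: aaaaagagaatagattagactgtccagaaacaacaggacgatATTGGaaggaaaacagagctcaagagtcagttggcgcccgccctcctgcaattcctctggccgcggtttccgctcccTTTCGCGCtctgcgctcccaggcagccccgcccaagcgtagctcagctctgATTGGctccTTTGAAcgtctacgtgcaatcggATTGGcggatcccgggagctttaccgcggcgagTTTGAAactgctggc
Top2a: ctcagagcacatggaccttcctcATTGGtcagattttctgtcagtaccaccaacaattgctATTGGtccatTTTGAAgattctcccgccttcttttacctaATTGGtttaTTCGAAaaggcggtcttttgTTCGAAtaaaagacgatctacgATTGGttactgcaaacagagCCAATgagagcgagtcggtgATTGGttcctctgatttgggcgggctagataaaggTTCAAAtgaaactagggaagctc

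Over all 18 matched G2/M genes there were 22 CHR matches, of which 16 began between 100 bases before and 50 bases after the start site. The 11 E2F matches of G1/S genes lay farther out, with 4 in that interval and a median first base at position -110. In a list of other pathway genes, E2F letters were present for 17 of 31 matched G1/S and replication genes (54.8%) and 4 of 41 matched G2/M and mitosis genes (9.76%). CHR letters were present for 10 of the 31 (32.3%) and 28 of the 41 (68.3%), and CCAAT for 19 (61.3%) and 28 (68.3%).

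**Figure D1:**
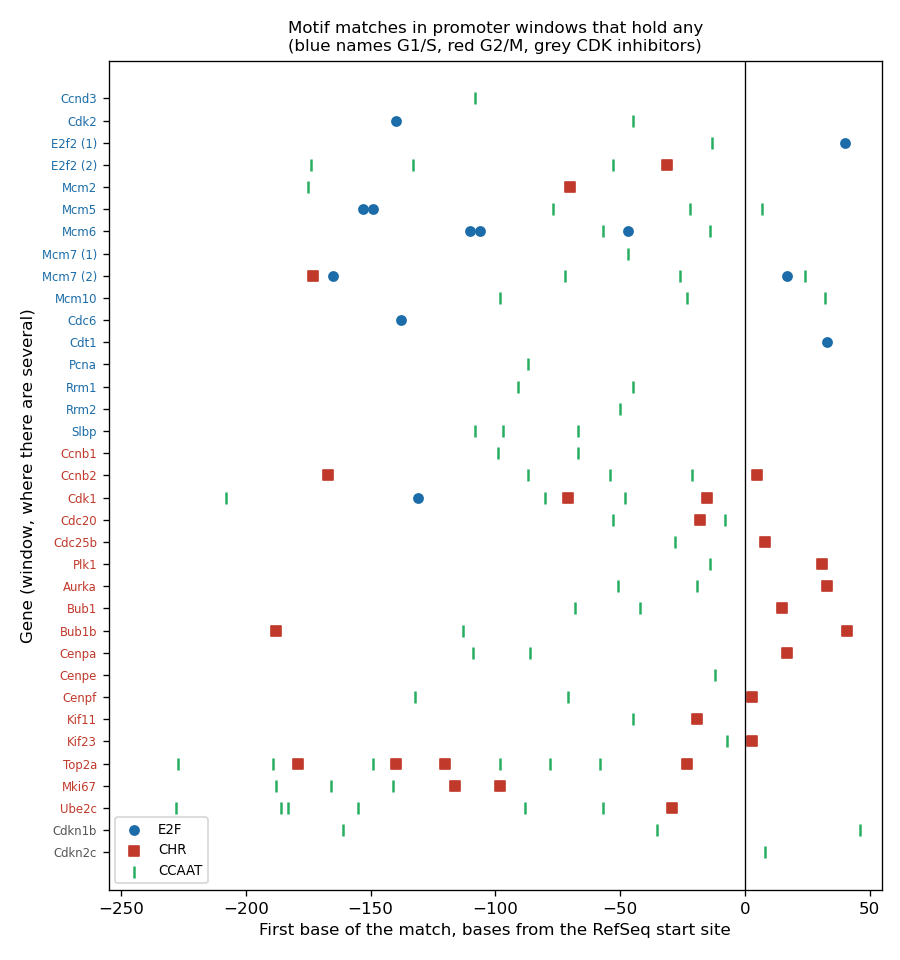
Matches to E2F, CHR and CCAAT letters in the promoter windows of the cell cycle genes, 1 row per window that holds any match. The x axis gives the first base of each match in bases from the RefSeq start site, and CHR matches fall mostly in the rows of G2/M genes, 16 of their 22 between 100 bases before and 50 bases after the start.

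Levels between genes are compared per transcript length, in TPM (length-scaled transcript abundance) computed from the estimated counts and annotated lengths. Cdk4, the kinase partner of D-type cyclins, had the highest level at 263 ± 24.8 TPM (SD, n = 6 libraries), followed by the D-type cyclin gene Ccnd3 at 230 ± 80.9 TPM. Cenpa, the centromeric histone H3 variant, was at 208 ± 69.0 TPM, Pcna, the sliding clamp of DNA polymerases, at 167 ± 16.9 TPM, and Top2a, which untangles replicated chromosomes, at 149 ± 44.9 TPM. Cdk4, Ccnd3 and Cenpa did not differ beyond the spread of Ccnd3 and Cenpa over libraries, nor did Pcna and Top2a beyond that of Top2a. These levels sum all transcripts of a gene, and for Cdk4, Cenpa and Top2a on average only 28.8, 12.4 and 30.2% of the level was on protein-coding transcripts. On coding transcripts alone Ccnd3 was highest at 218 ± 81.4 TPM and Pcna next at 148 ± 10.2 TPM, a difference within the spread of Ccnd3. Of the Ccnd3 level, 7.2 to 40.0% by library was assigned to Ccnd3-019, a coding transcript of 336 nt. Cdk4, Top2a and Cenpa were at 76.2 ± 13.4, 41.7 ± 9.06 and 26 ± 10.3 TPM on coding transcripts. Tyms, Mcm10 and Gins2 also had less than 50% of their level on coding transcripts. Mcm6, a subunit of the replicative helicase, was at 89.7 ± 24.5 TPM, and the other helicase subunit genes Mcm2, Mcm4, Mcm5 and Mcm7 at 15.4 to 50 TPM on average. At the low end, Ccne2, an E-type cyclin gene, was at 2.67 ± 1.26 TPM, the phosphatase gene Cdc25c at 4.42 ± 1.4 TPM and the mitotic kinesin gene Cenpe at 5.33 ± 1.31 TPM. Ccnd2, the second D-type cyclin gene, was at 66.6 ± 16.3 TPM and Cdk6 at 5.55 ± 3.11 TPM, so the mean of Cdk4 exceeded that of Cdk6 by more than the spread of either.

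**Figure D2:**
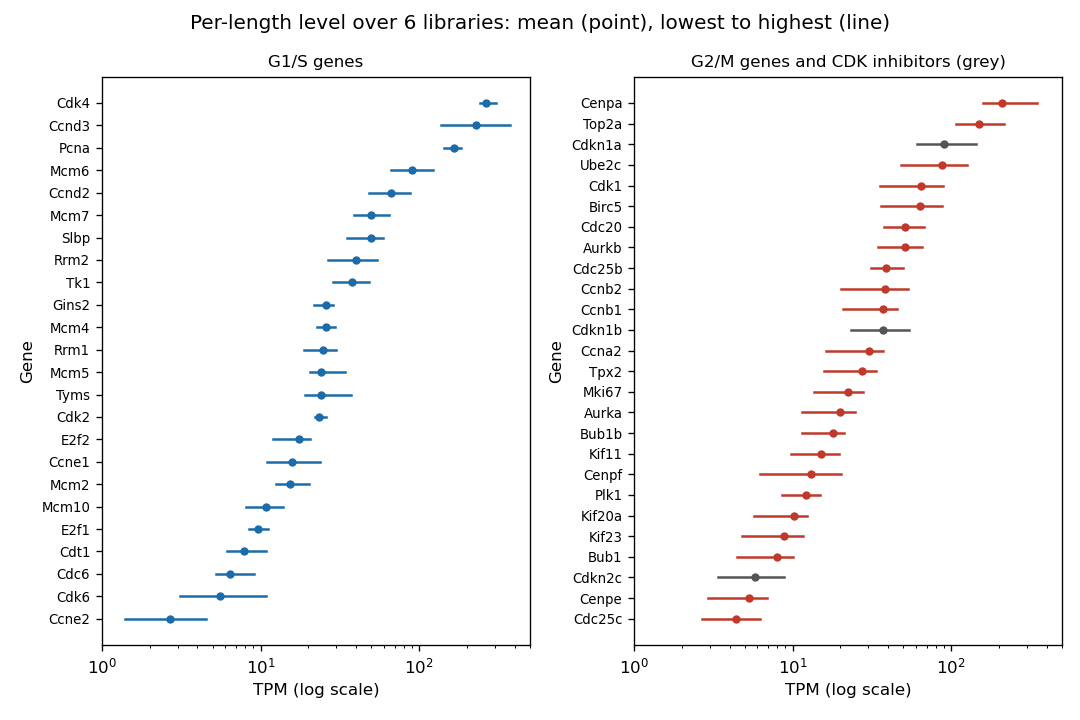
Per-length level of each gene in TPM on a log scale, with the mean over 6 libraries as a point and the lowest to the highest library as a line. Cdk4 at 263 TPM and Cenpa at 208 TPM lead the G1/S and the G2/M genes over all transcripts, though only 28.8 and 12.4% of these levels are on coding transcripts, and Ccne2 at 2.67 TPM is the lowest of the 50.

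The knockout was compared with the wild type to ask which genes depend on Il17a in these cultures. None of the 50 cell cycle genes passed the test for a change. edgeR's quasi-likelihood test with Benjamini-Hochberg adjustment called 0 of the 50 and 0% of the 15121 genes tested, and every one of the 50 had an adjusted p of 0.9999. The deleted gene Il17a was among the tested genes and was not called either. A gene left uncalled by this test is therefore not shown to be unchanged. At an unadjusted p under 0.05 it found 0 of the 50, against 1.67% of all tested genes. With the replicate number as a block, edgeR found 2 of the 50, Ccnd3 and Tyms, against 9.73% of all tested genes, and called 0 after adjustment. DESeq2 with the replicate number as a block called 2.68% of the 14241 genes with an adjusted p, and 0 of the 50. DESeq2 without a block and limma-voom with and without it also called 0 of the 50. The fitted log2 changes (KO over WT) ran from -0.30 for Ccnd3 to 0.42 for the inhibitor gene Cdkn2c. Changes and standard errors (SE) of single genes are those of edgeR without a block unless stated otherwise. With the replicate block edgeR's SE was smaller for each of the 50, by an amount that differed between genes. It was 0.11 against 0.26 for Mcm6 and 0.17 against 0.18 for Mcm10. The median was 0.10 over G1/S genes, 0.13 over G2/M genes and 0.01 over all tested genes.

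Few genes were ordered by genotype. In 1 of the 50 (2%), Slbp, all 3 KO libraries lay above all 3 WT libraries, as they did for 3.01% of tested genes, and in 0 of the 50 they lay below, as they did for 3.13%. The KO library was the higher one in all 3 pairs for 8 of the 50 (16%), against 16.6% of tested genes: Ccne1, Ccne2, Tyms, Slbp, Cenpe, Cenpf, Kif20a and Cdkn2c. It was the lower one in all 3 pairs for 1 of the 50 (2%), Ccnd3, against 16.7% of tested genes. The shares of genes not overlapping and of genes higher in all pairs were close to those of all tested genes.

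The clearest structure lay between libraries. WT 1 was low in mitotic transcripts: it was the lowest of the 6 libraries for 21 of 23 G2/M genes (91.3%) and for 9 of 24 G1/S genes (37.5%), against 14.2% of tested genes. WT 2 was the highest library for 17 of the 23 G2/M genes and KO 2 for 5, with no share of all tested genes to set beside these counts. The libraries and the counts were chosen after their values were seen, so they are given as a description. Summed over the 23 G2/M genes, the level was 2091, 2346 and 1834 CPM in KO libraries 1, 2 and 3, against 1311, 2595 and 1882 CPM in WT libraries 1, 2 and 3. The KO libraries thus spanned a narrower range that lay within the WT range, at 2090 ± 256 CPM in KO and 1929 ± 643 CPM in WT libraries (SD, n = 3 each). In bulk RNA, fewer dividing cells and less of each transcript per cell cannot be told apart.

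**Figure D3:**
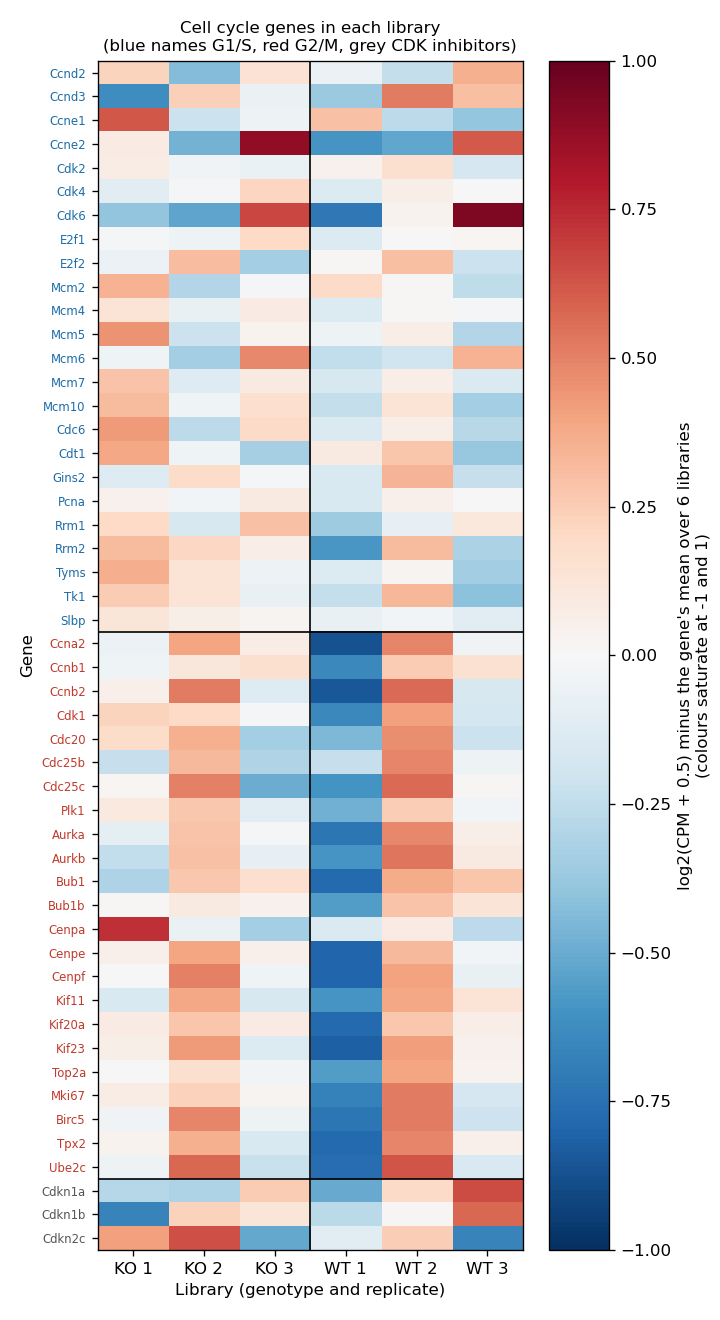
Level of each of the 50 genes in each library, as log2(CPM + 0.5) minus the gene's mean over the 6 libraries, with KO libraries left of the black line and WT libraries right of it. The WT 1 column is blue for nearly all G2/M genes, of which 21 of 23 are lowest there, and WT 2 and KO 2 are red.

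The G1/S genes varied less. Their summed level was 2532, 2272 and 2641 CPM in KO libraries 1, 2 and 3, against 2156, 2522 and 2571 CPM in WT libraries 1, 2 and 3. The groups overlapped, at 2482 ± 190 CPM in KO and 2416 ± 227 CPM in WT libraries (SD, n = 3 each). The highest library exceeded the lowest by a median factor of 1.62 over G1/S genes, 2.26 over G2/M genes and 1.79 over all tested genes. The ratio of the G2/M sum to the G1/S sum was 0.826, 1.03 and 0.694 in KO libraries 1, 2 and 3, and 0.608, 1.03 and 0.732 in WT libraries 1, 2 and 3. This ratio was highest in both number 2 libraries, and the groups overlapped.

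**Figure D4:**
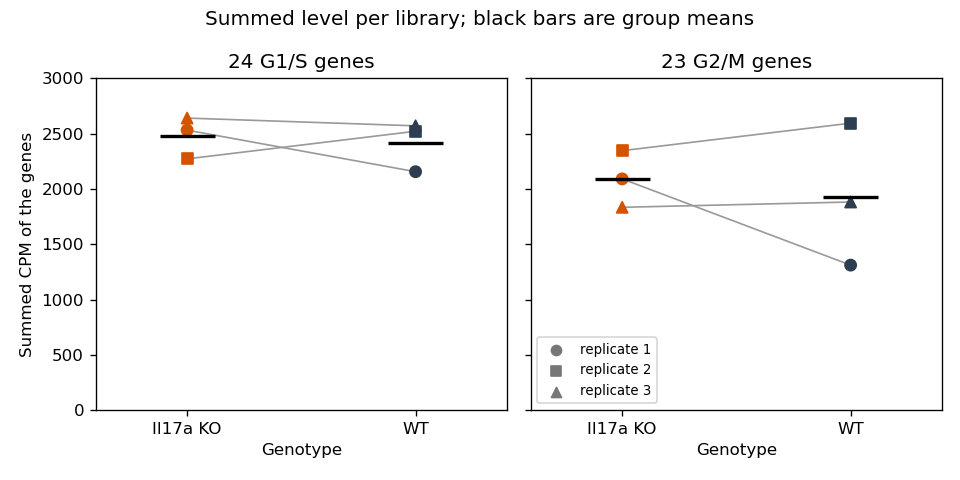
Summed CPM of the 24 G1/S genes and of the 23 G2/M genes in each library, KO left and WT right, with grey lines joining libraries of the same replicate number and black bars for group means. The G2/M sum of WT 1, at 1311 CPM, lies below the other 5 libraries, which run from 1834 to 2595 CPM.

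Within pairs the direction differed. In pair 1 the KO library was higher for 23 of 23 G2/M genes and 22 of 24 G1/S genes, with median log2 ratios of 0.69 and 0.29. In pair 2 it was higher for 5 of 23 and 5 of 24, with medians of -0.11 and -0.15. In pair 3 the sets parted, with 9 of 23 G2/M genes higher (median -0.08) and 20 of 24 G1/S genes higher (median 0.20). The median over all tested genes was 0.02, 0.00 and -0.01 in pairs 1, 2 and 3. Without WT 1, edgeR's median log2 change over G2/M genes was -0.11, and without KO 2 it was -0.03, both opposite in sign to the 0.13 with all libraries. Without WT 2 it was 0.40, without both number 1 libraries -0.09, and without both number 2 libraries 0.27.

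**Figure D5:**
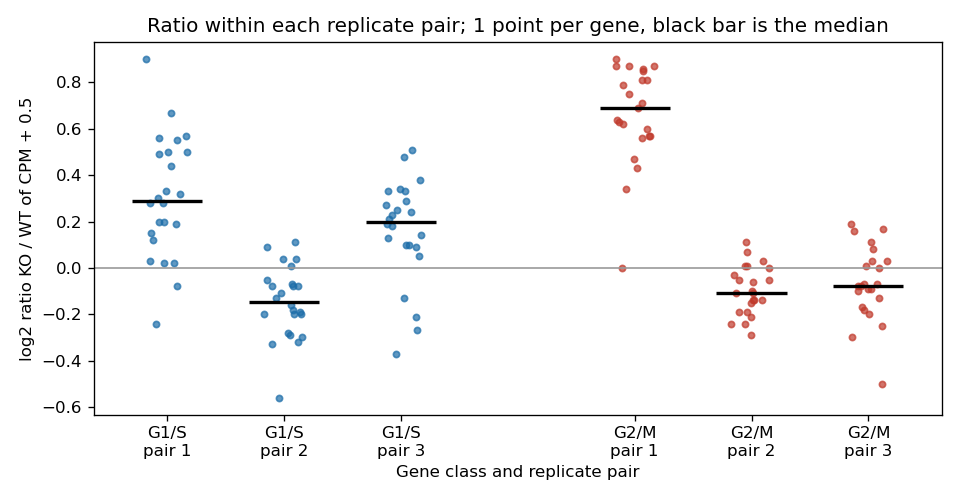
Log2 ratio of KO to WT within each replicate pair, with 1 point per gene and the median as a black bar, for G1/S genes at left and G2/M genes at right. G2/M genes are all at or above 0 in pair 1 (median 0.69) and spread around 0 in pairs 2 and 3 (medians -0.11 and -0.08).

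Markers of other cells also differed between these libraries. The 6 CD8 T cell markers summed to 1353, 1168 and 1439 CPM in KO libraries 1, 2 and 3. In WT libraries 1, 2 and 3 the sums were 1760, 969 and 864 CPM. WT 1, the library lowest in mitotic transcripts, had the highest sum, but KO 1 was the highest library for 5 of the 6 markers. KO 1 was the highest for 23.4% of all tested genes. NK cell markers, 6 in number, summed to 159.2 to 569.5 CPM in KO and 80.9 to 316.3 CPM in WT libraries, and both number 1 libraries were above the rest. The list of 12 B cell markers matched 14 gene IDs, of which 12 were tested. These 14 summed to 519.2 to 1482 CPM in KO and 343.2 to 786.1 CPM in WT libraries. Myeloid markers, 11 in number, summed to 163.9 to 1052 CPM in KO and 102.7 to 664.1 CPM in WT libraries. By edgeR's fitted change, 5 of 6 CD8, 5 of 6 NK and 12 of 12 tested B cell markers were higher in KO. So were 10 of 11 myeloid markers, and 7926 of all 15121 tested genes. Genes that DESeq2 with the replicate block called included Cd8a and Klrc1 of the CD8 list, Klrd1 and Klrk1 of the NK list, Ms4a1, Cd22, Blk and Igkc of the B cell list, and Itgam, Mpeg1, Ctss and Clec7a of the myeloid list, all higher in KO. Cd79a, Cd79b and Ighm of the B cell list, Cd14, S100a8 and S100a9 of the myeloid list and Cd4 were each called in 1 other alternative fit. Il17f, a cytokine gene beside Il17a and on the Th17 list, was at 1290, 433 and 1040 CPM in KO libraries 1, 2 and 3, against 376, 301 and 260 CPM in WT libraries 1, 2 and 3. Its adjusted p was 0.0433 in DESeq2 with the replicate block. Among the 10 Th17 markers, 6 were higher and 4 lower in KO by edgeR's fitted change. edgeR called 0 of these 10, with or without the block. Of the CD8, NK, B cell and myeloid lists only Klra8, an NK receptor gene, had a tested row at 0, in KO 3 and WT 3. The part of these cells in the cell cycle values was not tested.

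Among genes that start the cycle, Ccnd3 had the lowest log2 change of the 50. Ccnd3 (chromosome 17, 47505051 to 47599691) was at 184, 334 and 270 CPM in KO libraries 1, 2 and 3, against 218, 406 and 348 CPM in WT libraries 1, 2 and 3. It was lower in the KO library of each pair, but the groups overlapped. The log2 change was -0.30 in edgeR, with an SE of 0.30 without the replicate block and 0.10 with it. The adjusted p was 0.9999 in edgeR and 0.0642 in DESeq2 with the replicate block, the lowest of the 50. Ccnd2 had a log2 change of -0.04 (SE 0.23). Cdk4 (chromosome 10, 127063534 to 127067920) was at 191, 205 and 241 CPM in KO libraries, against 188, 216 and 206 CPM in WT libraries, a log2 change of 0.06 (SE 0.14) that was -0.06 without KO 3. Cdk6 and the E-type cyclin genes Ccne1 and Ccne2 had changes of -0.23 (SE 0.50), 0.26 (SE 0.28) and 0.35 (SE 0.49). Ccne1 was highest in KO 1 at 46.4 CPM and WT 1 at 37.0 CPM, against 22.8 to 29.0 CPM in the other 4, whereas Ccne2 was highest in KO 3 at 14.1 CPM and WT 3 at 11.6 CPM. Of the E2F factor genes, E2f1 was at 27.3 to 32.6 CPM in KO and 25.7 to 28.7 CPM in WT libraries, and E2f2 had a change of -0.06 (SE 0.22). Cdk2, the partner of E-type cyclins, had a change of -0.03 (SE 0.13).

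Among genes of origin licensing and firing, none passed the test. Mcm6 (chromosome 1, 128331591 to 128359656) was at 265, 216 and 381 CPM in KO libraries 1, 2 and 3, against 230, 237 and 347 CPM in WT libraries 1, 2 and 3. Both number 3 libraries were the highest, and the change of 0.08 (SE 0.26) was -0.20 without KO 3 and -0.02 without WT 1. Mcm10, which helps the loaded helicase start unwinding, was at 30.1, 23.4 and 27.1 CPM in KO libraries, against 20.3, 26.6 and 18.9 CPM in WT libraries. Its change was 0.29 (SE 0.18, unadjusted p 0.158 in edgeR), and KO 2 lay below WT 2. Pcna was the steadiest of the abundant genes, at 264, 252 and 273 CPM in KO libraries, against 231, 265 and 255 CPM in WT libraries, a change of 0.07 (SE 0.12). The licensing genes Cdc6 and Cdt1 had changes of 0.27 (SE 0.22) and 0.01 (SE 0.26), and Gins2, part of the active helicase, 0.01 (SE 0.19). The other helicase genes, Mcm2, Mcm4, Mcm5 and Mcm7, had changes between 0.05 and 0.20.

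Among genes of deoxynucleotide synthesis and histone mRNA, Tyms had the smallest unadjusted p of the 50 in edgeR without a block. Tyms, thymidylate synthase, was at 43.3, 36.9 and 32.4 CPM in KO libraries 1, 2 and 3, against 30.5, 34.1 and 26.3 CPM in WT libraries 1, 2 and 3. It was higher in KO in each pair, and the lowest KO value lay below the highest WT value; the change was 0.31 (SE 0.17) and edgeR's unadjusted p was 0.108 (0.0329 with the replicate block, where it was not called after adjustment). Rrm2, the regulated subunit of ribonucleotide reductase, was at 98.1, 90.6 and 82.1 CPM in KO libraries, against 52.4, 97.7 and 62.9 CPM in WT libraries. WT 2 lay with the KO libraries, and the change was 0.35 (SE 0.24). Rrm1, the large subunit, and Tk1, thymidine kinase, had changes of 0.23 (SE 0.18) and 0.18 (SE 0.22). Slbp, which binds the stem-loop of replication-dependent histone mRNAs, was at 69.8, 66.8 and 65.3 CPM in KO libraries, against 60.8, 62.9 and 59.1 CPM in WT libraries. These groups did not overlap, but the difference was small, at a change of 0.14 (SE 0.11) with an adjusted p of 0.9999 in edgeR and 0.821 in DESeq2 with the replicate block.

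Among mitotic genes, the kinase and cyclins that trigger entry into mitosis followed the library pattern. Cdk1 (chromosome 10, 69336635 to 69352938) was at 87.1, 85.4 and 73.9 CPM in KO libraries 1, 2 and 3, against 47.3, 99.0 and 65.7 CPM in WT libraries 1, 2 and 3. The KO values fell between the WT extremes, and the change was 0.22 (SE 0.27). Its partners Ccna2, Ccnb1 and Ccnb2 had changes of 0.18 (SE 0.33), 0.11 (SE 0.24) and 0.21 (SE 0.36), and in WT 1 they were at 44.6, 40.6 and 33.8 CPM. Cdc25b, a phosphatase gene that activates CDK1, was among the 2 G2/M genes for which WT 1 was not the lowest, at 85.4 CPM there and 81.7 CPM in KO 3. Ube2c, the ubiquitin-conjugating enzyme of the anaphase-promoting complex, was at 84.1, 130 and 74.7 CPM in KO libraries, against 51.3, 135 and 78.4 CPM in WT libraries. The number 2 libraries were the highest of each genotype, and the change of 0.13 (SE 0.38) was -0.14 without WT 1 and -0.17 without KO 2. Cdc20, an activator of the same complex, had a change of 0.11 (SE 0.29).

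Chromosome and spindle genes gave the same picture. Top2a (chromosome 11, 98992943 to 99024189) was at 322, 362 and 317 CPM in KO libraries 1, 2 and 3, against 219, 426 and 332 CPM in WT libraries 1, 2 and 3, with a change of 0.03 (SE 0.24) that was -0.18 without WT 1 and -0.05 without KO 2. Mki67, the proliferation marker Ki-67, was at 251, 280 and 243 CPM in KO libraries, against 149, 343 and 213 CPM in WT libraries, a change of 0.13 (SE 0.29). In both, the 3 KO values lay between the lowest and the highest WT value. Cenpa (chromosome 5, 30666777 to 30674827) was the exception, at 374, 216 and 178 CPM in KO libraries, against 204, 239 and 188 CPM in WT libraries. Only KO 1 was high, at 374 CPM against 178 to 239 CPM in the other 5, and the change of 0.28 (SE 0.28) was -0.10 without it. Cenpe, a kinesin that carries chromosomes to the spindle equator, was at 45.3, 57.5 and 45.2 CPM in KO libraries, against 24.9, 54.7 and 42.8 CPM in WT libraries, a change of 0.27 (SE 0.28). Kif20a, a kinesin of the central spindle, was at 40.7, 46.7 and 40.6 CPM in KO libraries, against 22.2, 46.5 and 40.2 CPM in WT libraries, a change of 0.23 (SE 0.27) that was -0.02 without WT 1. For Cenpe and Kif20a, pairs 2 and 3 were nearly level and WT 1 alone was low.

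The other 11 G2/M genes had changes between -0.08 and 0.26, and for each of them WT 1 was the lowest library. They comprised the phosphatase gene Cdc25c, the mitotic kinase genes Plk1, Aurka and Aurkb, the spindle checkpoint genes Bub1 and Bub1b, the kinetochore gene Cenpf, the kinesin genes Kif11 and Kif23, the chromosomal passenger gene Birc5 and the spindle assembly factor gene Tpx2.

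The CDK inhibitor genes did not move as a group. Cdkn1a, which encodes p21, was at 145, 142 and 211 CPM in KO libraries 1, 2 and 3, against 124, 202 and 277 CPM in WT libraries 1, 2 and 3, with a change of -0.28 (SE 0.31), which was 0.02 without WT 3. Cdkn1b, which encodes p27, was at 86.2, 161 and 149 CPM in KO libraries, against 114, 138 and 205 CPM in WT libraries, with a change of -0.21 (SE 0.30), which was 0.06 without WT 3 and 0.01 without KO 1. WT 3 was the highest library for both. Cdkn2c, which encodes the CDK4 and CDK6 inhibitor p18, was at 10.3, 12.2 and 5.20 CPM in KO libraries, against 7.0, 9.11 and 4.60 CPM in WT libraries, with a change of 0.42 (SE 0.39). It was higher in KO in each pair, and both number 3 libraries were the lowest. Of 4 other inhibitor genes, Cdkn2d was at 151 to 217 CPM in KO and 178 to 222 CPM in WT libraries, and Cdkn1c, Cdkn2a and Cdkn2b were at 0.573 CPM or less in every library. Of 12 target genes of p53, the factor that induces Cdkn1a after DNA damage, 11 were tested and 0 were called in edgeR, with a median log2 change of -0.06. The smallest unadjusted p-values were those of Pmaip1, Bax and Bbc3, genes that promote apoptosis, at 0.132, 0.514 and 0.523, with changes of 0.44 (SE 0.26), -0.08 (SE 0.12) and -0.26 (SE 0.38). Trp53inp1, with a change of -0.22 (SE 0.39), was called in a single alternative, DESeq2 with the replicate block and 1 replicate number left out.

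Other genes of the pathway, 40 of G1/S and replication and 50 of G2/M and mitosis, were all tested, and edgeR called 0 of them in either direction, with 0 at an unadjusted p under 0.05; DESeq2 with the replicate block also called 0. Their median log2 changes were 0.17 and 0.10. WT 1 was the lowest library for 44 of the 50 other G2/M genes (88%) and for 15 of the 40 other G1/S genes (37.5%). KO 1 was the highest library for 20 of the 40 other G1/S genes (50%) and for 11 of the 24 G1/S genes above (45.8%), against 23.4% of tested genes, and for 2 of the 50 other G2/M genes (4%) and 1 of the 23 G2/M genes above (4.35%). The smallest unadjusted p-values in edgeR were those of Spc25, a kinetochore gene, Wee1, a kinase gene that restrains CDK1, and Smc2, a condensin gene, with changes of 0.52 (SE 0.30), 0.43 (SE 0.27) and 0.36 (SE 0.26). In the G1/S list they were those of Mcm8, a helicase gene of DNA repair, Chaf1b, a histone chaperone gene, and Cdc45, a helicase cofactor gene, with changes of 0.36 (SE 0.22), 0.38 (SE 0.26) and 0.29 (SE 0.22). All 3 KO libraries lay above all 3 WT libraries for Mcm8, Wee1 and Lin9, 3 of these 90 genes (3.33%), against 3.01% of all tested genes. Foxm1, which encodes a factor that drives mitotic genes, was at 48.9, 54.6 and 37.5 CPM in KO libraries 1, 2 and 3, against 28.1, 67.3 and 39.2 CPM in WT libraries 1, 2 and 3. Its order of libraries followed that of the mitotic genes, with WT 1 lowest and WT 2 highest. Foxm1 was chosen for mention after its values were seen.

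The table held 211 transcripts of the 50 genes, and 14 genes had only 1. For 44 genes, protein-coding transcripts held at least 50% of the gene's level per length. Of 75 transcripts with 10 to 90% of their gene's level, 10 (13.3%), of 7 genes, had shares that did not overlap between the genotypes, against 6.77% of 18129 such transcripts over all tested genes. Shares within a gene sum to a whole, so both transcripts of Kif20a count in this number, as do both of Cdkn2c. The Kif20a transcript Kif20a-201 held 72.9, 58.7 and 56.3% of the gene's level in KO libraries 1, 2 and 3, against 52.8, 54.1 and 46.3% in WT libraries 1, 2 and 3. The Ccnd3 transcript Ccnd3-001 held 11.4 ± 0.629% in KO and 19.0 ± 3.09% in WT libraries (SD, n = 3 each), but another, Ccnd3-006, ran from 4.55 to 56.1% among WT libraries alone. For Cenpa the coding transcript Cenpa-001 held 14.2 ± 1.5% in KO and 10.7 ± 0.659% in WT libraries, and most of the level was assigned to Cenpa-003, annotated as subject to nonsense-mediated decay, at 60 ± 3.03% in KO and 57.1 ± 2.01% in WT libraries. These shares were not tested, and transcripts of a gene overlap, so the division of reads between them is an estimate.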

How the data were processed

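Stranded mRNA libraries of 3 KO and 3 WT T cell cultures were analysed. The authors deposited estimated counts for 93480 transcripts, per the file headers. Bowtie2 2.1.0, eXpress 1.3.1 and, as build, GRCm38 come from the submitters' processing notes. Their settings, the annotation release and how reads shared between transcripts were divided: not given in the sources used here. The deposited table also gave transcript length and GC content as a fraction, per the file headers; GC content was not used. Estimated counts were summed over each gene's transcripts and rounded, and TPM were computed from counts over annotated length.

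KO was compared with WT over 15121 genes by the quasi-likelihood test of edgeR 4.0.16, with TMM scaling, filterByExpr, no block, Benjamini-Hochberg adjustment and a threshold of 0.05. DESeq2 1.42.0 and limma 3.58.1 (R 4.3.3), other scalings and filters, and fits without single libraries or pairs served as alternatives. edgeR with and without the block and DESeq2 with it were also run on simulated counts. These counts held no replicate effect, so they do not show how many changes the fit without a block misses here. Pair ratios are log2 ratios of CPM + 0.5. Python 3.11.15, pandas 2.3.3 and matplotlib 3.10.9 made tables and figures.

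The labels do not say what a replicate number marks. Deviations from group means correlated at 0.602, 0.447 and 0.641 between same-number libraries (15121 genes), so same-number libraries were treated as pairs. Between other libraries the correlations were -0.465 to -0.174. Deviations cancel within a group, so positive same-number values make the others negative on balance, and these add no separate support. The genes, their classes and the lists were chosen with earlier results of these data known. Values in every library are given for genes not overlapping between genotypes or called in any fit, the 4 of each class with the highest level or smallest unadjusted p, and the inhibitors. From the other lists, genes called in any fit or among the 3 smallest p-values of the cell cycle and p53 lists are named (the rule's smallest p-values of the marker lists are not); further names were chosen after values were seen. The result for 1 marker gene is not reported here.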

Additional observations from a re-analysis of the deposited data

How the results depend on the processing

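The count of called cell cycle genes, 0 of 50, was 0 under all 20 alternatives, and so was that of the other cell cycle genes. The number of genes called over the whole table was 0 in edgeR with and without the replicate block, in limma-voom with and without it, and with other scaling, no filter or short transcripts (under 300 nt) left out; DESeq2 called 13 without and 381 with the replicate block. Without single libraries or pairs it ran from 0 to 264: in edgeR it was 1 without KO 1 and 0 otherwise, and in DESeq2 with the replicate block 176, 264 and 149 without replicate 1, 2 and 3. The cause was not tested. The median log2 change over G1/S genes ran from 0.02 to 0.19 over all alternatives. That over G2/M genes ran from -0.11 to 0.40 and was below 0 in the fits without WT 1, without KO 2 and without both number 1 libraries; the spread between replicates (SD) of the G2/M median was 0.46 on the log2 scale. Of the 17 genes chosen for values in every library, 8 kept the sign of their change under all alternatives. The lowest adjusted p of these 17 genes was 0.0642, for Ccnd3 in DESeq2 with the replicate block. Of the other 9, the change of Cdkn1a was above 0 without WT 3, and those of Top2a and Ube2c below 0 without WT 1. With 3 libraries per genotype, the number of libraries limits the precision of each change.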
